A study of Mus musculus with 6 samples.

Results

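Chromatin accessibility was examined at 10 mouse genes of the calcineurin pathway and of slow-fibre control: the calcineurin catalytic subunit genes Ppp3ca and Ppp3cb, the calcineurin regulators Rcan1 and Rcan2, the transcription factor genes Nfatc1, Nfatc2, Nfatc3 and Nfatc4, and the fibre-type regulators Sox6 and Prox1. Every peak that the authors' deposited table annotates to 1 of these 10 gene symbols was taken, which gave 196 of the 75134 peaks in the table, out of 16020 annotated gene symbols. Of these, 195 passed the filter on low counts and were tested among 73896 peaks; 1 weak Rcan2 peak did not pass.

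The study assayed open chromatin by ATAC-seq, in which the Tn5 transposase inserts adapters into accessible DNA, on nuclei from frozen quadriceps femoris, a thigh muscle. It compared 3 libraries from Prr14-WT mice (replicates 3, 4 and 8) with 3 from Prr14-KO mice (replicates 4, 5 and 7). No treatment was named, and age, sex, strain and the deleted part of Prr14 are not stated in the labels. These labels also do not say that each library came from a separate mouse, so the p-values measure only the spread between these libraries, which may be technical.

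Calcineurin is a phosphatase that calcium and calmodulin activate. It removes phosphates from the NFATc proteins, which then enter the nucleus, and this pathway is known to favour slow, oxidative genes in muscle fibres; RCAN proteins bind calcineurin and limit it. SOX6 is known to repress slow-fibre genes in fast fibres, whereas PROX1 is known to favour the slow programme, and it is also the defining factor of lymphatic endothelium.

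Counts in peaks totalled 7608514 to 12061822 per library, and levels are given as CPM, each peak's count relative to the library total, scaled with the trimmed mean of M-values (TMM). The only Prr14 peak, at its promoter, read 62.3, 66.5 and 57.1 CPM in WT and 51.2, 59.7 and 70.7 CPM in KO (log2 fold change -0.03, adjusted p = 0.961), and since the deleted part is not given it does not check the labels. Promoter peaks of the 8 myofibre marker genes summed to 515 to 823 CPM in WT and 615 to 644 CPM in KO. Over both groups, 4 endothelial promoter peaks summed to 17.9 to 34.5 CPM and 4 fibro-adipogenic ones to 64.6 to 86.4 CPM. The sums were 25.1 to 32.7 CPM for 3 satellite cell and 4.52 to 8.79 CPM for 2 macrophage promoter peaks. These sums cover unequal numbers of peaks and are not scaled for peak width, so they do not measure cell content. In the whole table, 2049 peaks were called higher and 3128 lower in KO at an adjusted p below 0.05; with the authors' library factors in the same test these became 1621 and 751, and the median log2 fold change of all peaks moved from -0.01 to 0.19. Accessibility in bulk nuclei cannot tell fewer nuclei of a type from a lower signal per nucleus.

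RefSeq promoter windows (GRCm38.p6, 250 bases before to 50 after a start site) matched 8 of the 10 genes, all but Nfatc1 and Ppp3ca. There were 19 windows in all, and 4 are shown as examples. Windows of other genes also lie in promoter peaks described below. The Rcan1 pair contrasts the internal start, known as the calcium-responsive one, with the upstream start. The internal window, chr16:92400029-92400328, lies wholly in an accessible peak, and the upstream window, chr16:92466120-92466419, shares 248 bases with another. The Ppp3cb window is chr14:20546524-20546823. Each is read on the minus strand, 5′ to 3′, and capitals mark GGAAA, the core that NFAT proteins recognise, or its reverse complement TTTCC.
Rcan1 internal start: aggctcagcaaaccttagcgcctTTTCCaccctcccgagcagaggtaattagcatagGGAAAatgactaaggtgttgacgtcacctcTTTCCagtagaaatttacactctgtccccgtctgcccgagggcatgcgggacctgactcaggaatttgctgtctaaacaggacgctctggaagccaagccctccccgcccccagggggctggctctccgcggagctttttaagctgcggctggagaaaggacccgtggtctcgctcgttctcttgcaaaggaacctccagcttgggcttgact
Rcan1 upstream start: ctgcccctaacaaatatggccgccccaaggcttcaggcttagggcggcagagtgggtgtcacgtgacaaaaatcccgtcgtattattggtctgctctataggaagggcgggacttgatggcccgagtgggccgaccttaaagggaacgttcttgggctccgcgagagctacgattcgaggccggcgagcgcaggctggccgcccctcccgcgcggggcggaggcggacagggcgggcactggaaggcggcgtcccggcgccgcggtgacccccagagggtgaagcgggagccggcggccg
Ppp3cb start: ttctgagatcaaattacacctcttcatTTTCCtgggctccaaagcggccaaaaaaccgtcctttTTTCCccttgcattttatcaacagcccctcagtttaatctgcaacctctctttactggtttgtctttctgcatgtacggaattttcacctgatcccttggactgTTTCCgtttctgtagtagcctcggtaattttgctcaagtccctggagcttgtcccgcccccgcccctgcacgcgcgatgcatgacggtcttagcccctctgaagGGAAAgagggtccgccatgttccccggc

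The internal Rcan1 window holds 3 NFAT cores, a number reached or exceeded in 9.42% of the 32851 RefSeq promoter windows of the same length. A window of Nfatc2 and the window of Nfatc4, not shown, also hold 3 each. The upstream Rcan1 window holds 0. The Ppp3cb window holds 4, the most of the 19, a number reached or exceeded in 2.65% of all windows. Over the 19 windows of the 8 matched genes, 14 (73.7%) hold at least 1 NFAT core on either strand, against 61.3% of all windows. For the other motifs searched on both strands, the E-box CAGNTG is in 9 of the 19 windows (47.4%, against 51.4%), and its form CAGCTG is in 2 (10.5%, against 16.3%). The E-box CACGTG is in 2 (10.5%, against 7.15%). The SOX core AACAAT is in 1 (5.26%, against 10.7%), and the shorter ACAAT, which it contains, is in 5 (26.3%, against 31.0%). A match describes letters only and is not a binding site.

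The MEF2 consensus (CTA, then any 4 bases, then TAG) occurs in 1 of the 19 windows (5.26%, against 3.69% of all windows), and that window is a Sox6 promoter. It is shown because MEF2 factors are known effectors of calcineurin signalling in muscle and because it lies wholly inside the strongest peak of all 10 genes. The window is chr7:116030998-116031297, minus strand, with the MEF2 match in capitals.
Sox6 start: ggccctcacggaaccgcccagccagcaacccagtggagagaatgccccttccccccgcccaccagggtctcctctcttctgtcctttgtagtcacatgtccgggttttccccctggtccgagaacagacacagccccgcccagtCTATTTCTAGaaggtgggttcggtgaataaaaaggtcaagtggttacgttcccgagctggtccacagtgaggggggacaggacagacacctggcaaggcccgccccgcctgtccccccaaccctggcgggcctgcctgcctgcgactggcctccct

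Of the 195 tested peaks of the 10 genes, 13 (6.67%) were called, against 7.01% of all tested peaks. In KO, 10 were lower (5.13%, against 4.23% of all peaks) and 3 were higher (1.54%, against 2.77%), so the genes together sat near the background of the table. Leaving out WT replicate 4, KO replicate 4 or KO replicate 5 brought the 10 lower peaks to 6, 5 or 5, and the 3 higher ones became 0 or 1 on leaving out WT replicate 3 or 4, and 0 on leaving out KO replicate 5 or 7. Their median log2 fold change was -0.09, against -0.01 over all peaks; with the authors' library factors it was 0.12, against 0.19, and without WT replicate 4 it was -0.01, against 0.02. The calls were spread unevenly. Ppp3ca had 6 of the 10 lower peaks, Sox6 3 and Rcan2 1, while the higher peaks were 1 each at Nfatc2, Rcan2 and Prox1. Nfatc1, Nfatc3, Nfatc4, Ppp3cb and Rcan1 had no called peak among 36 tested. Without Ppp3ca, 7 of 160 peaks (4.38%) were called, 3 higher and 4 lower.

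**Figure D1:**
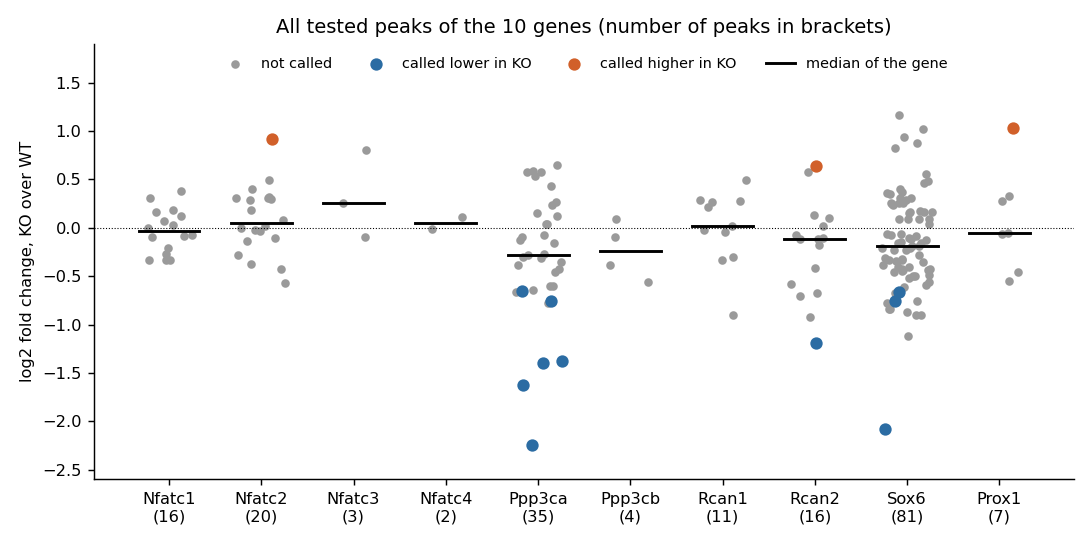
Each point is the log2 fold change, KO over WT, of 1 tested peak, grouped by gene, with a black line at the median of the gene and called peaks in colour. Ppp3ca has 6 called lower peaks and a median of -0.28, and the other genes have at most 3 called peaks each.

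In the authors' deposited table, 2201 of 66394 peaks with an adjusted p (3.32%) passed the same threshold, and 4 of 177 peaks of these genes did (2.26%). The 4 were 3 lower Ppp3ca peaks and the higher Prox1 peak, and all 4 were also called here.

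None of the called peaks was of the promoter class, which the authors' annotation extends to 3 kb from a start site. Of the 27 promoter-class peaks of the 10 genes, 0 were called by edgeR, against 3.07% of all promoter-class peaks. Only 1, a weak Sox6 peak, had an unadjusted edgeR p under 0.05, against 1609 of all 17415 tested promoter-class peaks. DESeq2, limma-voom and the authors' adjusted p called 0 of the 10 promoter peaks named below. Of the 129 tested intronic peaks 11 were called (8.53%), close to the 8.32% of all intronic peaks. The remaining 2 called peaks were among 30 intergenic ones (6.67%, against 7.01% of all tested peaks).

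Ppp3ca encodes the alpha catalytic subunit of calcineurin, a major form in muscle, and its peaks had the smallest adjusted p of the 10 genes. The gene (ENSMUSG00000028161) spans 268 kb of chromosome 3, plus strand, at 136669714 to 136937727 (GRCm38), and 35 peaks were annotated to it. Of these, 6 were lower in KO (17.1%, against 4.23% of all peaks) and 0 were higher. The median log2 fold change was -0.28, against -0.01 over all peaks. With the authors' library factors that median was -0.10, against 0.19 over all peaks, with 19 of 35 values below 0. Without WT replicate 4 it was -0.01, against 0.02 over all peaks. The count of 6 was 3 when WT replicate 4 or KO replicate 4 was left out. The 35 values ran from -2.25 to 0.65, with 23 below 0 and 12 above.

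The strongest Ppp3ca difference was an intronic peak at chr3:136852530-136854103, 183 kb downstream of the start. It read 18.2, 25.1 and 21.3 CPM in WT and 6.69, 7.23 and 7.05 CPM in KO. Every WT library was above every KO library, and the KO libraries lay close together. The KO level was 3.08-fold lower (log2 fold change -1.62, SE 0.22, adjusted p = 1.39e-10), and the peak was called under all 15 alternative settings.

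A second intronic peak, chr3:136916095-136917369, lies 247 kb downstream. It read 10.5, 15.4 and 7.37 CPM in WT and 3.87, 4.85 and 3.94 CPM in KO. The groups did not overlap, and WT replicate 4 was the highest library. The log2 fold change was -1.40 (SE 0.26, adjusted p = 7.31e-06), again called under all 15 settings.

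A neighbouring intronic peak, chr3:136919015-136919336, at 249 kb, read 3.50, 6.62 and 4.08 CPM in WT against 1.46, 2.06 and 1.92 CPM in KO. WT replicate 4 was again the highest and no KO library reached a WT one. Its log2 fold change was -1.38 (SE 0.39, adjusted p = 0.00894), and its adjusted p was 0.227 when WT replicate 4 was left out and 0.0588 when KO replicate 4 was.

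The largest fold was at an intergenic peak past the end of the gene, chr3:136980850-136981332, 311 kb from the start. It read 4.32, 6.35 and 3.16 CPM in WT and 0.732, 1.23 and 0.915 CPM in KO. The KO libraries held 7, 15 and 10 counts there, against 42, 69 and 24 in WT, so the groups were far apart at low depth. The KO level was 4.74-fold lower (log2 fold change -2.25, SE 0.45, adjusted p = 5.03e-05), and all 15 settings called it. No RefSeq gene overlaps the peak, and the nearest protein-coding gene other than Ppp3ca, Emcn, which encodes an endothelial sialomucin, is 360 kb away.

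The other 2 lower Ppp3ca peaks were smaller in fold and less stable. The intronic peak chr3:136802311-136803357, at 133 kb, read 25.8, 26.8 and 14.6 CPM in WT and 13.2, 14.9 and 14.8 CPM in KO. WT replicate 8 lay among the KO libraries, so the groups overlapped. Its log2 fold change was -0.66 (SE 0.20, adjusted p = 0.0228), and 7 of 15 settings called it, with the adjusted p at 0.0636 to 0.208 in the 5 of 6 fits that left out 1 library and lost it. The peak chr3:136819097-136819631, at 149 kb, read 7.10, 13.8 and 8.43 CPM in WT and 4.91, 6.66 and 5.86 CPM in KO. Its groups did not overlap, but its log2 fold change of -0.75 (SE 0.25, adjusted p = 0.0418) was called in 2 of 15 settings, and leaving out WT replicate 4, KO replicate 4, KO replicate 5 or KO replicate 7 gave an adjusted p of 0.514, 0.226, 0.117 or 0.124.

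Along the gene, the lower peaks lay toward the 3′ end. Upstream of the gene and up to its midpoint, 134 kb from the start, 1 of 20 peaks was called lower and the median log2 fold change was -0.04; the called one lies just before the midpoint. Beyond the midpoint, 5 of 15 peaks were called lower, 13 of 15 were below 0 and the median was -0.60. With the authors' library factors the medians were 0.14 and -0.39, against 0.19 over all peaks. Without WT replicate 4 they were 0.10 and -0.47, against 0.02 over all peaks. In each of these settings, 3 of the 15 were called lower. This split was made after the values were seen and is given as a description only.

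**Figure D2:**
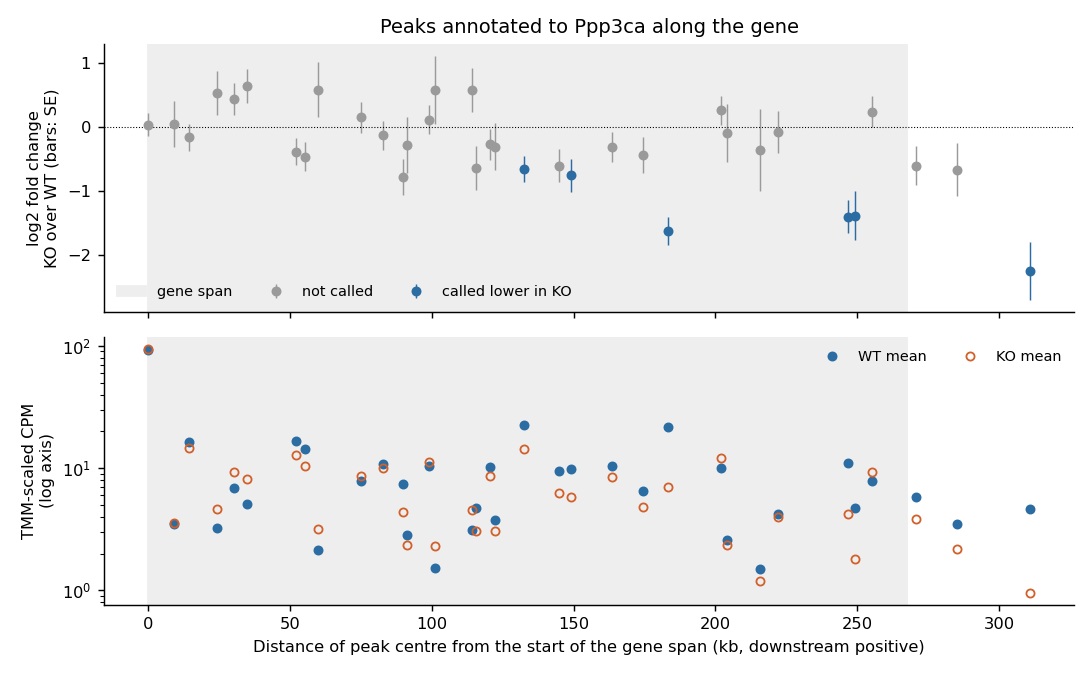
The upper panel plots the log2 fold change, KO over WT, with its SE for each of the 35 Ppp3ca peaks against distance from the start of the gene span in kb, and the lower panel plots the WT and KO mean levels in TMM-scaled CPM on a log axis. The promoter peak at the left is the strongest and has a value of 0.04, while 5 of the 6 called peaks lie beyond 134 kb.

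The Ppp3ca promoter peak, chr3:136668251-136672173, read 104, 91.7 and 79.2 CPM in WT and 83.2, 94.5 and 105 CPM in KO. The groups overlapped throughout (log2 fold change 0.04, SE 0.17, adjusted p = 0.954). Summed over all 35 peaks, Ppp3ca read 357, 411 and 307 CPM in WT and 291, 327 and 306 CPM in KO, with WT replicate 4 highest.

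Markers moved beside these values. Of 107 tested peaks of 8 myofibre genes (Acta1, Ckm, Mb, Des, Ttn, Mybpc1, Mybpc2 and Pygm), 12 were lower (11.2%, against 4.23% of all peaks) and 2 higher in KO (1.87%, against 2.77%), with a median log2 fold change of -0.37 and 92 below 0. Most of the 12 lower peaks were at Ttn and Mybpc1 and the rest at Mb and Ckm, while the 2 higher ones were at Mb. Acta1, Des, Mybpc2 and Pygm had no called peak. Without WT replicate 4 the count of 12 was 3 and the median -0.16, against 0.02 over all peaks. Without KO replicates 4, 5 and 7 in turn the count was 6, 1 and 4. With the authors' library factors it was 0 and the median -0.19, against 0.19 over all peaks. Their summed promoter level was also highest in WT replicate 4, at 823 CPM. Of 17 tested peaks of satellite cell markers, 4 were higher (23.5%, against 2.77% of all peaks), all at Pax7, which marks muscle stem cells. The median log2 fold change of the 17 was 0.13, and 6 of them were below 0. A list of genes absent from muscle also had 2 of 10 tested peaks higher, both at Ttr. The part of these markers in the Ppp3ca, Rcan2 and Sox6 values was not tested.

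The peak at 183 kb was compared with 1 promoter peak for each of 12974 genes by the Pearson r of log2(CPM + 0.5) over the 6 libraries, as a description. The promoters most like it were those of Pkia (r = 0.995), which encodes an inhibitor of protein kinase A, and Mettl21e (r = 0.992), which encodes a lysine methyltransferase. These were followed by Bud23 (0.988), Frzb (0.986) and Meig1 (0.983). Pkia was called lower in KO with a log2 fold change of -1.55, from 20.1 to 6.87 CPM, and Mettl21e with -1.94, from 19.4 to 5.05 CPM, whereas Bud23 (-1.01, adjusted p = 0.219), Frzb (-0.38) and Meig1 (-0.40) were not called.

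Ppp3cb encodes the beta catalytic subunit. It had 4 peaks, and 0 were called, against 7.01% of all peaks. Its promoter peak, chr14:20545833-20547071, which holds the 4-core window printed above, read 26.96, 22.4 and 17.1 CPM in WT and 21.0, 23.1 and 26.9 CPM in KO. The groups overlapped (log2 fold change 0.09, SE 0.19, adjusted p = 0.888).

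A further 2 peaks lie inside the RefSeq span of Ppp3cb (chromosome 14, 20499364 to 20546573, minus strand) but are annotated in the table to Mss51, a muscle gene, and so are not counted for Ppp3cb. The stronger, chr14:20518671-20520679, read 15.2, 21.8 and 16.8 CPM in WT and 5.33, 5.59 and 5.86 CPM in KO, with every KO library below every WT library (log2 fold change -1.68, SE 0.23, adjusted p = 2.45e-10). The weaker, chr14:20506023-20506574, had a log2 fold change of -1.34 (adjusted p = 0.0108). These 2 Mss51 peaks are described because they were called, and no values under the alternative settings are given for them. The RefSeq spans of the 10 genes hold 7 peaks annotated to other genes. Those at Nfatc3 and Sox6 were not called (adjusted p 0.23 to 0.85). Taking peaks by RefSeq span in place of the deposited gene name gave 167 peaks for the 10 genes, 160 of them shared, with 11 lower and 2 higher.

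Rcan1 encodes a feedback inhibitor of calcineurin, and none of its 11 peaks was called, against 7.01% of all peaks. The promoter peak at its upstream start, chr16:92466172-92466682, read 30.2, 23.1 and 19.9 CPM in WT and 20.9, 23.4 and 30.3 CPM in KO, so that the groups covered the same range (log2 fold change 0.02, SE 0.19, adjusted p = 0.977). The internal promoter peak, chr16:92398767-92400690, which covers the window with 3 NFAT cores, was looked at after its values were known. It read 27.3, 32.0 and 30.3 CPM in WT and 20.7, 23.0 and 27.5 CPM in KO. KO replicate 7 lay just above WT replicate 3, and the difference did not pass (log2 fold change -0.33, SE 0.19, adjusted p = 0.387).

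Rcan2 encodes a second calcineurin inhibitor of the family, and it had peaks called in both directions. Of its 16 tested peaks, 1 was higher (6.25%, against 2.77% of all peaks) and 1 lower (6.25%, against 4.23%). The gene lies on chromosome 17, plus strand, at 43801352 to 44039516. The lower peak, intronic at chr17:44018397-44019538 and 218 kb from the start, read 8.54, 14.7 and 10.4 CPM in WT and 5.12, 3.37 and 6.32 CPM in KO. The groups did not overlap (log2 fold change -1.19, SE 0.25, adjusted p = 0.000151). It was called in 14 of 15 settings, the exception being the authors' deposited table, where the adjusted p was 0.095.

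The higher Rcan2 peak, intronic at chr17:43854719-43856455 and 54.2 kb from the start, read 8.33, 15.8 and 10.5 CPM in WT and 18.7, 15.4 and 20.3 CPM in KO. WT replicate 4 lay just above KO replicate 5, so the groups overlapped (log2 fold change 0.64, SE 0.21, adjusted p = 0.0403). This peak was called in 7 of 15 settings, and the adjusted p was 0.0507 to 0.329 when any 1 library other than WT replicate 4 was left out. At the Rcan2 promoter, the peak chr17:43801048-43802665 read 20.2, 28.0 and 25.8 CPM in WT and 20.5, 20.6 and 24.3 CPM in KO, with overlapping groups (log2 fold change -0.18, SE 0.19, adjusted p = 0.740).

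The 4 NFATc genes encode the factors that calcineurin activates, and 1 of their 41 peaks was called (2.44%, against 7.01% of all peaks). Their median log2 fold change was 0.02. Nfatc1, which encodes the NFAT factor best known for the slow-fibre programme, had 0 called of 16 peaks, with values from -0.34 to 0.38. Its named promoter peak, chr18:80707295-80707848, read 14.4, 16.1 and 12.8 CPM in WT and 11.3, 16.4 and 16.4 CPM in KO (log2 fold change 0.02, SE 0.21, adjusted p = 0.978). The stronger peak at its upstream start, chr18:80713334-80716117, chosen after its values were seen, read 68.8, 67.6 and 59.5 CPM in WT and 65.1, 75.0 and 73.3 CPM in KO (log2 fold change 0.12, adjusted p = 0.819). At both, the groups overlapped.

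Nfatc2 had the single called NFAT peak, an intronic peak at chr2:168584825-168585168, 16.7 kb from the start. It read 3.19, 3.40 and 3.55 CPM in WT and 4.91, 7.48 and 6.68 CPM in KO. All KO libraries were above all WT libraries, and the WT libraries differed little. The KO level was 1.89-fold higher (log2 fold change 0.92, SE 0.31, adjusted p = 0.0417), called in 8 of 15 settings, and its adjusted p was 0.132 when WT replicate 3 was left out, 0.0748 for WT replicate 4, 0.277 for KO replicate 5 and 0.123 for KO replicate 7.

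The Nfatc2 promoter peak, chr2:168601558-168602258, read 11.9, 7.91 and 7.37 CPM in WT and 10.04, 11.3 and 12.7 CPM in KO. WT replicate 3 fell among the KO libraries, and the difference did not pass (log2 fold change 0.32, SE 0.23, adjusted p = 0.548). It had the smallest adjusted p of the 10 named promoter peaks under any alternative, 0.257.

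Nfatc3 had 3 peaks and Nfatc4 had 2, with 0 called, against 7.01% of all peaks. The Nfatc3 promoter peak, chr8:106058500-106060338, read 43.3, 41.7 and 36.9 CPM in WT and 38.0, 31.6 and 44.9 CPM in KO (log2 fold change -0.09, SE 0.18, adjusted p = 0.878). The Nfatc4 promoter peak, chr14:55822557-55825352, read 39.6, 31.2 and 40.2 CPM in WT and 37.4, 39.6 and 42.6 CPM in KO (log2 fold change 0.11, SE 0.18, adjusted p = 0.849). Both pairs of groups overlapped.

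Sox6 encodes the repressor of slow-fibre genes, and it had the most peaks of the 10 genes, 81. The gene spans 570 kb of chromosome 7, minus strand, at 115470872 to 116040776. In KO, 3 peaks were lower (3.70%, close to the 4.23% of all peaks) and 0 were higher, with a median log2 fold change of -0.19 and 51 of 81 values below 0. With the authors' library factors that median was 0.01, with 39 of 81 below 0, against 0.19 over all peaks, and without WT replicate 4 or KO replicate 7 it was -0.07. The count of 3 was 1 without KO replicate 4 and 0 without KO replicate 5. Summed over its peaks, Sox6 read 702, 829 and 623 CPM in WT and 670, 661 and 597 CPM in KO, again with WT replicate 4 highest.

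The strongest of the 3, an intronic peak at chr7:115545389-115548512, 492 kb downstream of the start, read 33.2, 44.4 and 33.8 CPM in WT and 20.5, 22.1 and 23.2 CPM in KO. Every KO library was below every WT library. The KO level was 1.69-fold lower (log2 fold change -0.76, SE 0.19, adjusted p = 0.0022). It was called in 12 of 15 settings, and its adjusted p was 0.457 with the authors' library factors, 0.334 in the authors' deposited table and 0.0521 when KO replicate 5 was left out.

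The Sox6 peak chr7:115750314-115752504, at 287 kb, read 23.2, 43.6 and 24.9 CPM in WT and 19.7, 18.7 and 19.7 CPM in KO. WT replicate 4 stood far above the other libraries, although the groups did not overlap. Its log2 fold change was -0.66 (SE 0.19, adjusted p = 0.013), but -0.28 with an adjusted p of 0.463 when WT replicate 4 was left out, and the adjusted p was 0.058 or 0.163 when KO replicate 4 or 5 was.

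The remaining one, chr7:115913743-115914019, at 125 kb, was very weak, with 29, 15 and 15 counts in WT and 6, 7 and 3 in KO. Its log2 fold change was -2.08 (SE 0.69, adjusted p = 0.0402). Only 2 of the 12 settings that gave it an adjusted p called it, and leaving out WT replicate 3, WT replicate 8 or any KO library gave 0.0814 to 0.261.

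**Figure D3:**
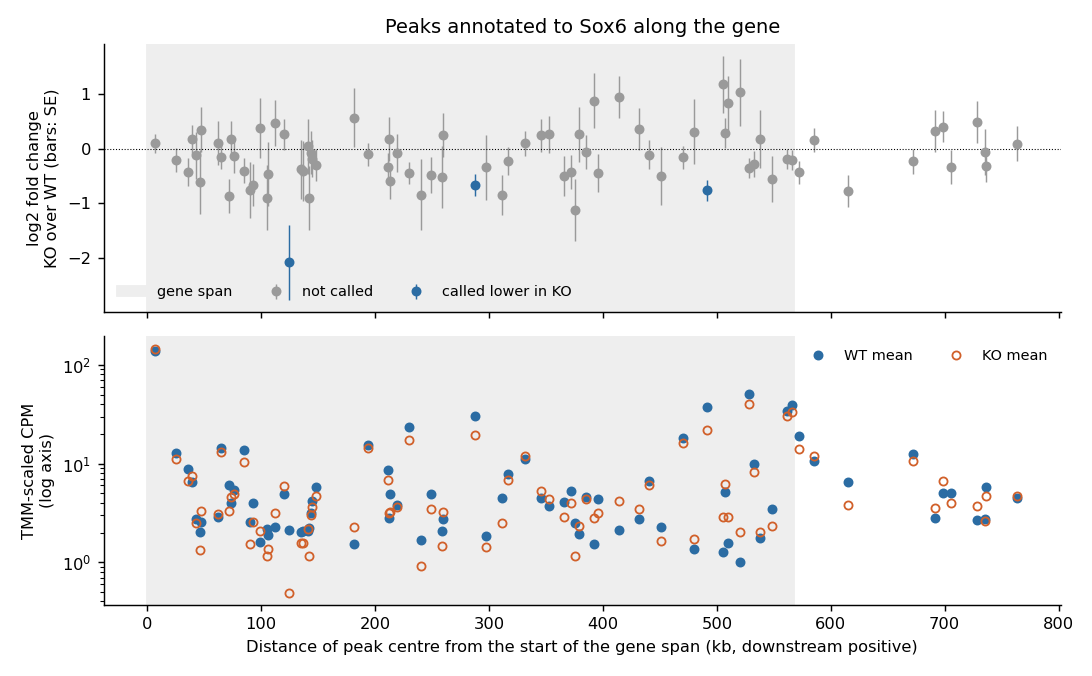
The upper panel plots the log2 fold change, KO over WT, with its SE for each of the 81 Sox6 peaks against distance from the start of the gene span in kb, and the lower panel plots the WT and KO mean levels in TMM-scaled CPM on a log axis. The 3 called peaks, at 125, 287 and 492 kb, are spread along the gene, and the strong promoter peak at the left has a value of 0.09.

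The strongest Sox6 peak, chr7:116029892-116034707, covers the RefSeq start at 116031047 and the MEF2 match printed above, and it was chosen after its values were seen. It read 153, 155 and 104 CPM in WT and 125, 156 and 159 CPM in KO. WT replicate 8 and KO replicate 4 were the low libraries, and the groups overlapped (log2 fold change 0.09, SE 0.17, adjusted p = 0.870). Among promoter-class peaks, the one whose centre lies closest to an annotated start, chr7:115995603-115995973, near an internal start that it does not cover, was weak in all libraries, with 2.47, 2.67 and 3.03 CPM in WT and 2.20, 2.06 and 3.20 CPM in KO (log2 fold change -0.13, SE 0.44, adjusted p = 0.939).

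Prox1 encodes a homeobox factor of slow fibres, satellite cells and lymphatic endothelium. Of its 7 peaks, 1 was called, higher in KO (14.3%, against 2.77% of all peaks). It is intergenic at chr1:190061757-190062281, 109 kb downstream of the start, and overlaps the RefSeq long non-coding RNA gene Gm30446. It read 1.96, 2.58 and 3.95 CPM in WT and 4.81, 6.41 and 5.86 CPM in KO. All KO libraries were above all WT libraries at a low level, from 19 to 30 counts in WT and 46 to 78 in KO.

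The KO level of this Prox1 peak was 2.05-fold higher (log2 fold change 1.03, SE 0.33, adjusted p = 0.0299). In the authors' deposited table its adjusted p was 0.0293, whereas here DESeq2 gave 0.0535, and in edgeR it was 0.203 or 0.0897 on leaving out WT replicate 3 or 4, and 0.191 or 0.0909 on leaving out KO replicate 5 or 7. The promoter peak, chr1:190168773-190170768, read 17.3, 12.5 and 17.9 CPM in WT and 12.6, 15.8 and 17.1 CPM in KO, and the groups overlapped (log2 fold change -0.06, SE 0.21, adjusted p = 0.938). Of the 16 tested peaks of lymphatic endothelial markers (Lyve1, Flt4, Pdpn, Ccl21a and Reln), 0 were higher and 1, at Flt4, was lower (6.25%, against 4.23% of all peaks). The part of the Pax7 and Flt4 values in the Prox1 peak was not tested.

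**Figure D4:**
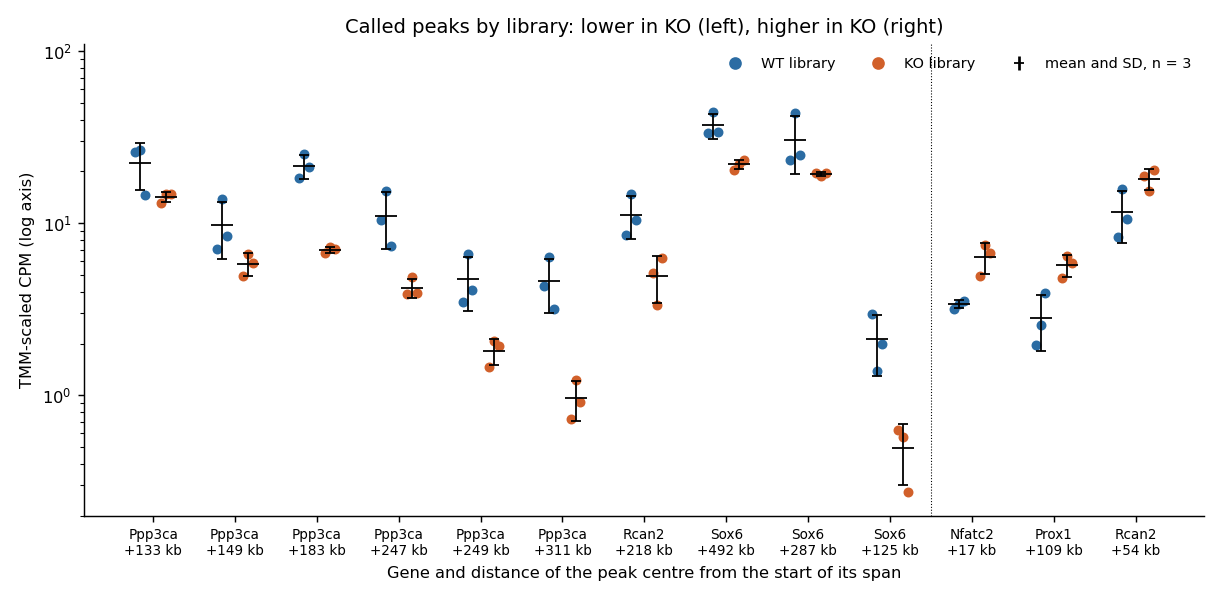
Points give the level of the 13 called peaks in each WT and KO library, in TMM-scaled CPM on a log axis, with the mean and SD of 3 libraries; labels give the gene and the distance of the peak from the start of its span. The 10 peaks lower in KO stand to the left of the dotted line and the 3 higher to its right, and in 2 of the 13 the groups overlap.

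Among the 13 called peaks, 9 had all KO libraries below all WT libraries, 2 had them above and 2 overlapped. Of the 182 other tested peaks, 154 overlapped, 18 had KO wholly below WT and 10 wholly above. The same count was not made over all peaks, and the call itself favours peaks whose groups separate. These counts therefore only describe the peaks. The called peaks had a median width of 1047 bases and a median level of 7.79 CPM, against 688 bases and 5.13 CPM for the others.

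Per kb of peak, the 10 named promoter peaks ranged from 7.02 CPM at the weak Sox6 peak and 7.78 at Prox1 to 26.3 at Nfatc1 and 48.2 at Rcan1, as means of all 6 libraries. Between them stood Nfatc4 (13.7), Rcan2 (14.4), Nfatc2 (14.6), Ppp3cb (18.5), Nfatc3 (21.4) and Ppp3ca (23.7). Neighbours in this order overlapped in their libraries, except that all Prox1 libraries (6.27 to 8.97) were below all Nfatc4 ones (11.2 to 15.2), and all Nfatc1 libraries (20.4 to 29.6) were below all Rcan1 ones (38.9 to 59.3).

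**Figure D5:**
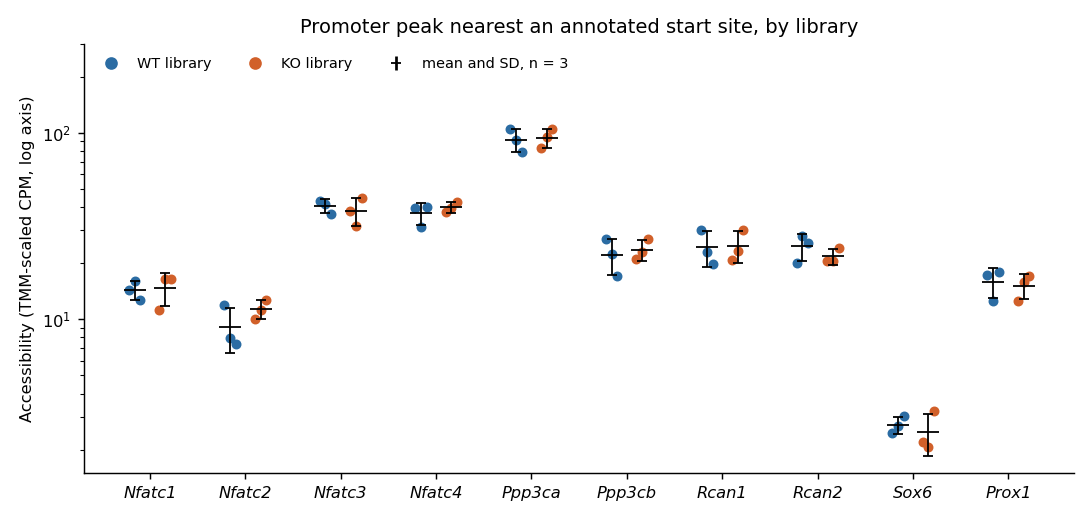
Points give the level of the named promoter peak of each gene in each WT and KO library, in TMM-scaled CPM on a log axis, with the mean and SD of 3 libraries. WT and KO libraries overlap at all 10 genes, from the Ppp3ca peak at 79.2 to 105 CPM down to the weak Sox6 peak at 2.06 to 3.20 CPM.

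The other genes of the pathway were read from a list of 29, which had 219 peaks. Of the 218 tested, 7 were higher (3.21%, against 2.77% of all peaks) and 3 lower in KO (1.38%, against 4.23%), so that 4.59% were called against 7.01%, with a median log2 fold change of -0.06. None of the 35 peaks of 12 other calcineurin subunit, inhibitor and partner genes was called, among them Ppp3r1, the regulatory subunit gene, and the Myoz genes for calcineurin-binding proteins of the Z-disc. In edgeR, 2 of the 35 had an unadjusted p under 0.05, against 12542 of all 73896 tested peaks.

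The kinases that return NFAT to the cytoplasm had 6 called peaks of 78 tested (7.69%, near the 7.01% of all peaks). Gsk3b had a lower intronic peak, at 11.01, 18.6 and 11.2 CPM in WT and 5.12, 7.56 and 6.13 CPM in KO (log2 fold change -1.12, adjusted p = 0.000153). Csnk1a1 had a higher intergenic peak, at 5.76, 8.01 and 6.98 CPM in WT and 17.7, 17.8 and 13.4 CPM in KO (log2 fold change 1.23, adjusted p = 9.08e-06). At both, no KO library overlapped a WT one. Dyrk1a had 1 lower peak (-0.83, adjusted p = 0.00745) and 1 higher (0.78, adjusted p = 0.0214), and Dyrk2 had 2 higher (1.06 and 0.69).

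Upstream of calcineurin, 5 genes of calcium entry and release had 2 called of 56 tested peaks (3.57%, against 7.01% of all peaks). The median log2 fold change of the 56 was -0.095. Orai1, the store-operated calcium channel gene, had 1 higher peak (log2 fold change 1.61, adjusted p = 0.00169) and Itpr1, the IP3 receptor gene, had 1 (0.70, adjusted p = 0.0401). Sox5, a relative of Sox6, had 1 higher intergenic peak (1.16, adjusted p = 0.0359), the only call among 16 tested peaks of Sox5 and Sox13 (6.25%).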

How the data were processed

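ATAC-seq gave 6 libraries, 3 WT and 3 KO. Per the submitters' processing notes, the authors used Trimmomatic, BWA, MACS2, deepTools, bedtools and DESeq2 1.6.3 with GRCm38, with no parameters stated. The deposited table holds 1 row per peak, with a count of reads per library, a normalized signal that the authors obtained by dividing each count by a library factor, a log2 fold change, a p-value and adjusted p, and the peak's position, class, gene name and distance to a start site. The table also carries a score per peak whose scale is not stated by the authors, and it was not used. The authors' normalized signal served to recover these factors, which ran from 0.977 to 1.04 and did not follow the total counts per library.

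Counts were fitted over all peaks with edgeR 4.0.16 (R 4.3.3; TMM; filterByExpr with a minimum count of 10; quasi-likelihood test, two-sided) and adjusted by Benjamini-Hochberg over 73896 peaks. Called means an adjusted p below 0.05, and the SE is the log2 fold change over the square root of F. The common biological coefficient of variation was 0.201. Replicate pairs differed by more than sampling noise (chi-square over its degrees of freedom 4.08 to 7.49; Spearman correlation of counts 0.920 to 0.949), so none was merged. Members were matched on gene name; members and lists were chosen with earlier results of these data known. For each gene, the promoter-class peak whose centre is nearest an annotated start (smallest deposited distance) and all called peaks were named, and others named are said to be chosen after their values were seen; likeness used the peak with the smallest p. Distances in kb run to the peak centre from the start of the gene span in the authors' table. That start can differ from the RefSeq one printed above (for Sox6, 116038744 in place of 116040776). Alternatives were the median-ratio factors, total counts, the authors' factors, a loess offset, no filter or a minimum count of 30, DESeq2 1.42.0, limma-voom (limma 3.58.1), the authors' adjusted p, leaving out each library, RefSeq spans and a threshold of 0.01. The fit was tested on simulated data. No genome was used, so no peak sequence is shown. The values of 1 called peak among the other pathway genes are not reported here.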

Additional observations from a re-analysis of the deposited data

How the results depend on the processing

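The labels do not say whether replicate numbers mark a shared litter or day. No paired analysis was possible because WT and KO share only 1 replicate number. The 3 libraries per group and the low counts of many intronic peaks limit the size of difference that could be called. The count of lower peaks was 10, and it was 4 with the authors' library factors, 6 with DESeq2, 3 with the authors' adjusted p, 6 at 0.01 and 5 to 10 on leaving out 1 library; the 10 includes 1 peak not called in the full data, and at most 9 of the original peaks were kept. The count of higher peaks, 3, was 0 with DESeq2, 1 with the authors' adjusted p, 0 at 0.01 and 0 to 2 on leaving out 1 library. The count of lower Ppp3ca peaks, 6, was 3 with the authors' factors, 3 with their adjusted p and 3 to 7 on leaving out 1 library (1 of the 7 was new). That of Sox6, 3, was 0 with the authors' factors, 0 with their adjusted p, 1 with DESeq2, 1 at 0.01 and 0 to 3 on leaving out 1 library (1 of the 3 was new). The 3 Ppp3ca peaks at 183, 247 and 311 kb passed in all 15 alternatives.

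None of the 10 named promoter peaks was called in any alternative, and small values changed sign. With the authors' factors and in their table, the log2 fold change was 0.10 and 0.10 at Nfatc3, 0.027 and 0.027 at Rcan2, 0.085 and 0.086 at Sox6 and 0.17 and 0.17 at Prox1; the loess offset gave -0.014 at Ppp3ca. Leaving out 1 library gave -0.037 to 0.18 at Nfatc1, -0.20 to 0.063 at Nfatc3, -0.023 to 0.16 at Ppp3ca, -0.011 to 0.28 at Ppp3cb, -0.12 to 0.23 at Rcan1, -0.33 to 0.032 at Sox6 and -0.18 to 0.074 at Prox1. The authors' factors ran only from 0.977 to 1.04, whereas the median-ratio factors ran from 0.761 to 1.21. Total counts ran from 7608514 in WT replicate 8 to 12061822 in KO replicate 5. Beyond these values and the larger median of all peaks under the authors' factors, the cause of the sign changes was not tested.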
